A study of Arabidopsis thaliana with 18 samples.

Results

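The 102 loci described here are transposon-rich genes and pseudogenes around the centromere of Arabidopsis chromosome 3. They were chosen from a table of small RNAs of 22 nt as every row with a locus identifier between AT3G29500 and AT3G43899 whose mean level reached 5 RPM, reads scaled to a fixed library total, in at least one of 6 groups. The interval holds 990 of the 32420 rows, and 102 met the threshold. The levels themselves therefore chose the loci, and the group means below are a description of them.

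By the tissue, age and medium given for each sample, the libraries were made from whole 14-day-old seedlings of 3 genotypes, each on Murashige and Skoog (MS) medium with 1 µM abscisic acid (ABA) and on MS medium alone, with 3 libraries in each of the 6 groups. The genotypes were the double mutant dcl4-2 dcl2-1, the single mutant dcl4-2 and the wild-type accession Col-0. Both mutants carry the dcl4-2 allele, which affects DICER-LIKE 4, and the double mutant also carries dcl2-1, which affects DICER-LIKE 2. The protocol text conflicts with this: it speaks of the aerial parts of older plants moved to soil, and of no treatment. Which applies could not be settled from the files, and the sample fields were followed. Replicates are called biological in the design text, with no word on separate pools of seedlings, so p-values below measure the spread between these libraries. The 22-nt levels of DCL2 and DCL4 themselves were at most 0.364 and 0.145 RPM in any group, too low to check the genotypes. In such bulk tissue, fewer cells of a type and less RNA per cell cannot be told apart.

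Dicer-like enzymes cut double-stranded RNA into small interfering RNAs (siRNAs) of fixed lengths. DCL2 makes the 22-nt class, which can trigger the production of further siRNAs, while DCL4 makes most of the shorter siRNAs that act on messenger RNAs. Pericentromeric heterochromatin is packed with transposons that plants keep silent with siRNAs, DNA methylation and histone methylation. ABA is a hormone of drought and other stresses that slows seedling growth.

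Sequences are shown first because many of the loci are related to one another in sequence. Alignment of the 102 loci grouped 59 of them into 10 families, in which loci were joined at an identity of at least 75% over at least 50% of the shorter one. The largest held 30 loci and is called the AT3G43862 family after its most abundant member. The next held 10 loci and is called the AT3G30802 family. Of the other families 6 were pairs, while 43 loci had no relative of this kind among the 102. The most copied 22-base word in the leading member of each of the 2 large families is given in lower case, read from the TAIR10.1 assembly of RefSeq, on the strand of its locus. The first, at chr3:15714992-15715013 on the minus strand, occurred 59 times in the 5 nuclear chromosomes and in 13 of the 30 family loci. The second, at chr3:12484025-12484046 on the plus strand, occurred 35 times and in 5 of the 10.
AT3G43862 word: agctgatgaggtcgagtaccca
AT3G30802 word: ttcacaaggatgatgaggtgtt

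One family member, AT3G33067, holds an exact copy of the 21-base mature sequence that the annotation gives for MIR854, a microRNA family known to lie within Athila retrotransposons. The annotation places 5 copies of that sequence on chromosome 5. The first line shows 61 bases of AT3G33067 around the copy, at chr3:13650654-13650714 on the plus strand, with the MIR854 bases in capitals. The other lines show the best-aligned stretch of 4 relatives, with capitals on bases that are not matched by an identical base in AT3G33067. They lie at chr3:15715470-15715528 on the minus strand, chr3:12247841-12247899 on the minus strand, chr3:12989657-12989715 on the plus strand and chr3:15259770-15259817 on the plus strand.
AT3G33067: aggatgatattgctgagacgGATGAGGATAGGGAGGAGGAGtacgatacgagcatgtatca
AT3G43862: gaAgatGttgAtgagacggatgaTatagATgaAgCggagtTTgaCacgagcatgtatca
AT3G30695: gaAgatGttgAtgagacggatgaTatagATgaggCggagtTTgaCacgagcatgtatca
AT3G32010: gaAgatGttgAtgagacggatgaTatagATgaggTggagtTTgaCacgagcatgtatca
AT3G43304: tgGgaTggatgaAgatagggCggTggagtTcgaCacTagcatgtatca
In 18 of the 30 family loci, AT3G33067 itself included, at least 40 of the 61 bases were identical to AT3G33067. An exact match to all 21 bases was found in 1 family locus, AT3G33067, and a match with at most 4 mismatches in 5 more. The table gives 1 value per locus, so where along a locus the 22-nt reads lie was not analysed here.

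A different arrangement was present at AT3G43828, a pseudogene of 627 bases at chr3:15677383-15678009 on the minus strand. It spans most of an inverted repeat, that is, a stretch followed by its own reverse complement, a form of sequence whose transcript can fold back into double-stranded RNA. The arms are 198 bases long, 185 of them identical (93.4%), with 214 bases between them, and the left arm begins 99 bases outside the locus. Arm 1 is chr3:15677284-15677481 on the plus strand, arm 2 is chr3:15677696-15677893 on the minus strand, and capitals mark the 13 bases that differ.
AT3G43828 arm 1: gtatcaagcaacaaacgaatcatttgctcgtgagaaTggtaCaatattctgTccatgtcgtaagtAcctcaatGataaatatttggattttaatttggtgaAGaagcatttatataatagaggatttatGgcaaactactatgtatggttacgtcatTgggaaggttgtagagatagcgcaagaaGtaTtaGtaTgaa
AT3G43828 arm 2: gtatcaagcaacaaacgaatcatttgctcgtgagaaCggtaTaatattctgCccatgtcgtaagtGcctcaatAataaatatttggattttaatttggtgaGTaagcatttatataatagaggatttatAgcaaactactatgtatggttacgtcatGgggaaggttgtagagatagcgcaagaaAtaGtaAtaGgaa
Only 1 other locus of the 102, AT3G31945, held an inverted repeat with arms of at least 150 bases, with 82.9% identity over 210 bases.

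The annotation calls 89 of the 102 loci pseudogenes, 4 transcribed pseudogenes and 9 protein-coding genes. They lie between 11.3 and 15.7 Mb of chromosome 3, and their median length is 3034.5 bases, with a range from 393 to 9166. A translated search against proteins annotated as transposon-derived found a match for 30 loci at an E-value of 1e-10 or less. The best match was a GAG/POL/ENV polyprotein of retrotransposons for 8 loci, an En/Spm-like transposon protein for 4 and a Gag-Pol polyprotein for 4, while a MuDR family transposase was the best match for 3. No microRNA gene is among the 102 loci.

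The share of a locus's 22-base words that occur more than once in the nuclear genome describes how far its reads could be told apart from those of its copies. A word repeated only within the locus counts too. Its median was 43.0% for the 102 loci, 24.6% for the 863 other annotated rows of the interval and 0.652% for 5464 rows of the rest of chromosome 3. For the AT3G43862 family the median was 64.8% and for the AT3G30802 family 60.4%. In 15 of the 102 loci the share was under 10%, and in AT3G43833 it was 0. The sources used here do not say how reads with several genomic matches were counted, so values of loci in one family may share reads and are uncertain one by one.

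**Figure D1:**
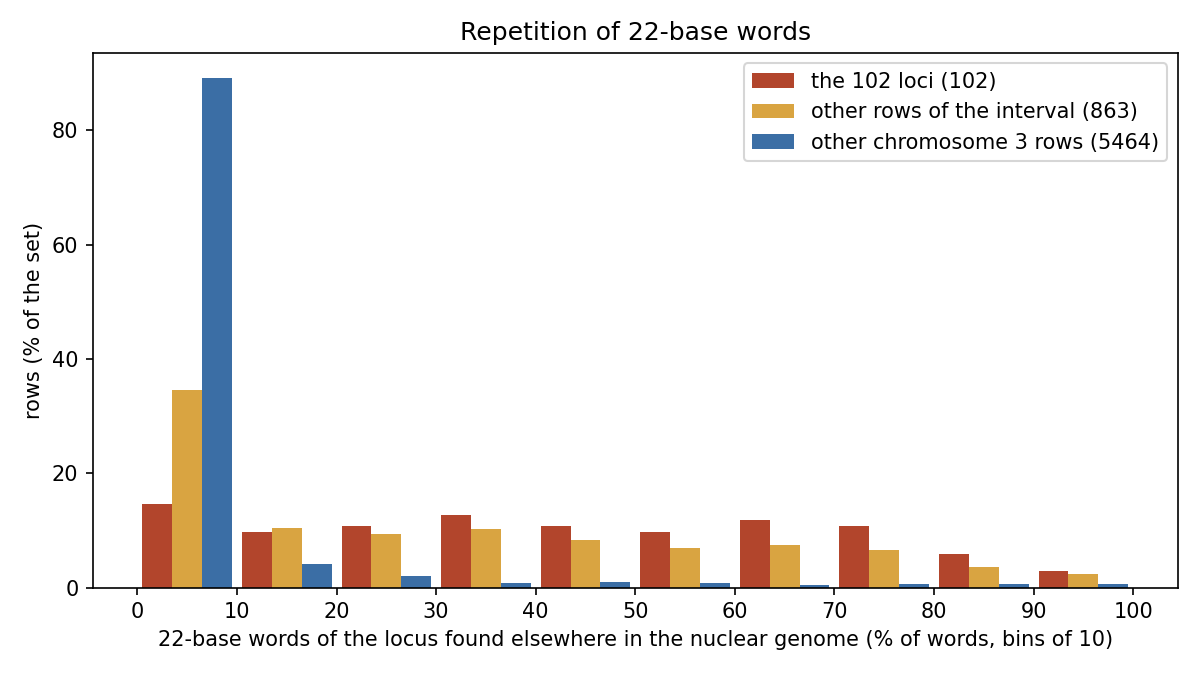
Share of each row's 22-base words found more than once in the nuclear genome, within the row or elsewhere (x axis, % of words in bins of 10) against the share of rows in each set (y axis, %), for the 102 loci, the other rows of the interval and the other chromosome 3 rows. The 102 loci spread over all bins, with 14.7% of them in the lowest bin, against 34.6% of the other interval rows and 89.1% of the other chromosome 3 rows.

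The deposited group means were split into the 3 libraries behind each of them. The libraries are called A to C by falling scaling total within each group, and the letters link nothing between groups. The scaling totals, in units of 1e6 reads, were 1.28, 1.10 and 0.181 for dcl4-2 dcl2-1 on ABA, 1.10, 0.991 and 0.0953 for dcl4-2 dcl2-1 on MS, 12.7, 10.02 and 0.517 for dcl4-2 on ABA, 0.831, 0.665 and 0.514 for dcl4-2 on MS, 2.19, 1.83 and 1.53 for Col-0 on ABA, and 0.978, 0.869 and 0.581 for Col-0 on MS. The reads that fell in the 102 loci ranged from 19538 in dcl4-2 ABA library A to 3 in dcl4-2 dcl2-1 MS library C, where 1 read is worth 10.5 RPM. In that library 101 of the 102 loci had no read, which allows up to 31.5 RPM for each (3 reads, counting error only). In dcl4-2 dcl2-1 ABA library C 68 of the 102 had no read, which allows up to 16.6 RPM for each.

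The highest group mean fell in dcl4-2 on ABA for 76 loci, in Col-0 on ABA for 14, in Col-0 on MS for 6, in dcl4-2 dcl2-1 on ABA for 5 and in dcl4-2 dcl2-1 on MS for 1. That last locus, AT3G43520, reached 31.5 RPM in the shallowest library and 0.913 and 0 RPM in the other double mutant libraries on MS, so 3 reads placed it above the threshold. Most loci were low: 58 stayed under 10 RPM in every group and 12 reached 20 RPM in some group. Just above the threshold of 5 RPM lay AT3G33528 at 5.03, AT3G30415 at 5.05 and AT3G32230 at 5.13 RPM. Just below it lay AT3G42820 at 4.99, AT3G30410 at 4.97 and AT3G43546 at 4.96 RPM.

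**Figure D2:**
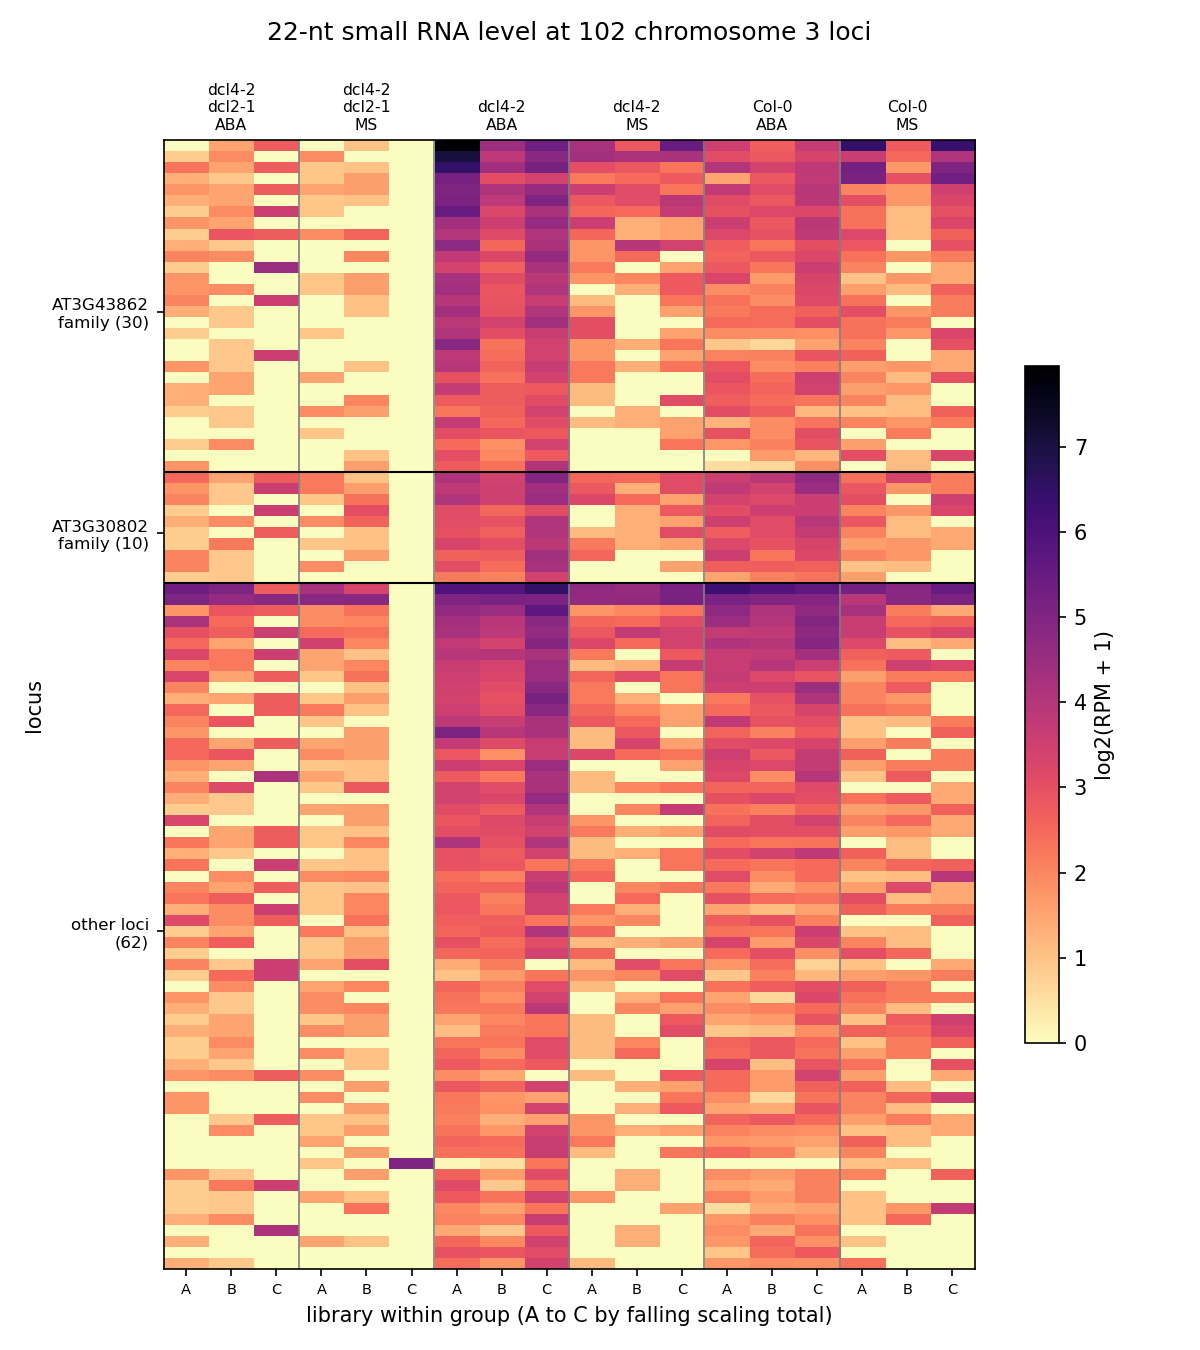
Level of the 102 loci (rows, by family and then by mean level) in the 18 libraries (columns), as log2(RPM + 1). The dcl4-2 ABA columns are the darkest for most rows, and dcl4-2 dcl2-1 MS library C is blank for 101 of 102 loci.

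The first question is how the whole interval behaved, which the threshold of 5 RPM does not set. The summed level of its 990 rows was 569.9, 491 and 614 RPM in dcl4-2 dcl2-1 on ABA, against 2261, 1319 and 2544 RPM in dcl4-2 on ABA. The double mutant libraries all lay below the dcl4-2 libraries, at a ratio of means of 0.273. On MS the sums were 313, 442 and 73.5 RPM in dcl4-2 dcl2-1, against 516, 484 and 691 RPM in dcl4-2, a ratio of 0.490. The 73.5 RPM of library C is 7 reads, and with 1 library left out this ratio ran from log2 -1.54 to -0.58. Col-0 had 1309, 1168 and 1693 RPM on ABA and 831, 615 and 806 RPM on MS.

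ABA libraries exceeded MS libraries in every genotype without overlap. The ratio of means was 2.02 in dcl4-2 dcl2-1, 3.62 in dcl4-2 and 1.85 in Col-0. In dcl4-2 dcl2-1 it ran from log2 0.56 to 1.53 with 1 library left out. The double mutant also lay below Col-0, at 0.402 on ABA and 0.368 on MS, while dcl4-2 and Col-0 overlapped, at ratios of 1.47 on ABA and 0.751 on MS. With 1 library left out, the ratio of the double mutant to Col-0 on MS ran from log2 -1.96 to -0.99. By the exact two-sided permutation test, p was 0.1 for each of the 7 comparisons without overlap, which is the smallest p that 3 against 3 libraries allow, and 0.2 for dcl4-2 against Col-0 on either medium. No sum in the interval could therefore pass 0.05. Adjusted over the 9 comparisons by the Benjamini-Hochberg method, these exact permutation p-values became 0.129 and 0.2. The comparisons share groups of libraries and are not independent of each other.

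These ratios depend on the scaling. The summed 22-nt level of annotated microRNA genes also differed, averaging 10766 ± 3199 RPM in dcl4-2 on ABA and 4010 ± 1971 RPM in dcl4-2 on MS (SD, n = 3 each), and its part in the result was not tested. With microRNA sums made equal, the interval ratio of ABA to MS became 1.63 in dcl4-2 dcl2-1, 1.203 in dcl4-2 and 0.887 in Col-0, so in Col-0 its direction turned. The ABA and MS libraries then overlapped in every genotype. The ratio of dcl4-2 dcl2-1 to dcl4-2 became 0.512 on ABA and 0.378 on MS, both still without overlap. As a share of the level of all rows other than NIA1 and NIA2, 2 nitrate reductase genes with very high 22-nt levels, the interval held 3.64 ± 0.281% in dcl4-2 dcl2-1 on ABA, against 6.44 ± 0.981% in dcl4-2 on ABA and 5.46 ± 0.05003% in Col-0 on ABA (SD, n = 3 each). On MS the shares were 2.19 ± 1.39% in dcl4-2 dcl2-1, 3.86 ± 0.511% in dcl4-2 and 4.35 ± 0.378% in Col-0.

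The interval was next set against like intervals of the other 4 chromosomes' pericentromeric regions. These hold 3331 rows, of which NIA2 is one, and NIA2 was left out after its values were seen because its level in dcl4-2 on ABA could not be split by library. Without NIA2 their sum was 1823, 1507 and 2377 RPM in dcl4-2 dcl2-1 on ABA, against 8823, 4448 and 7959.7 RPM in dcl4-2 on ABA. The ratio of means between those groups was 0.269, beside 0.273 for chromosome 3. The log2 ratio of the chromosome 3 interval to these regions differed by 0.04 between dcl4-2 dcl2-1 and dcl4-2 on ABA (exact permutation p = 0.7) and by 0.25 between ABA and MS in dcl4-2 (exact permutation p = 0.2). In Col-0 the ABA minus MS difference was -0.0021 (exact permutation p = 1). At 3 against 3 libraries these tests cannot go below 0.1, and a p above the threshold does not show that the regions behaved alike.

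With the rows as first listed, NIA2 included, the same difference was -1.47 for dcl4-2 against Col-0 on MS and 1.09 for dcl4-2 dcl2-1 against dcl4-2 on MS (exact permutation p = 0.1 and 0.2). Both values rest largely on NIA2, since the comparison regions averaged 6301 RPM in dcl4-2 on MS with it and 2288 RPM without it. Without NIA2 the differences were -0.25 for dcl4-2 against Col-0 on MS and -0.18 for dcl4-2 dcl2-1 against dcl4-2 on MS (exact permutation p = 0.1 and 1). With NIA2 it was 0.18 for ABA against MS in Col-0 and -0.20 for dcl4-2 dcl2-1 against Col-0 on ABA (exact permutation p = 0.1 each), and without NIA2 -0.0021 and 0.0321 (exact permutation p = 1 and 0.9). Taking the values with NIA2, and those without it where dcl4-2 on ABA enters, the exact permutation p adjusted over the 9 comparisons was 0.3 or higher in each.

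Sums within the 102 loci were taken by family. The 30 loci of the AT3G43862 family summed to 39.1, 40.8 and 77.4 RPM in dcl4-2 dcl2-1 on ABA, against 914, 235 and 474 RPM in dcl4-2 on ABA. On MS the sums were 19.2, 30.3 and 0 RPM in dcl4-2 dcl2-1, against 129.97, 85.7 and 159.5 RPM in dcl4-2. In Col-0 they were 172, 132 and 236 RPM on ABA and 262, 57.6 and 277 RPM on MS. The double mutant libraries were the lowest on both media, at 0.0969 of the dcl4-2 mean on ABA and 0.132 on MS, and the Col-0 media overlapped, at a ratio of ABA to MS of 0.903.

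The 10 loci of the AT3G30802 family, 5 of which matched a transposon protein, summed to 21.1, 12.7 and 33.2 RPM in dcl4-2 dcl2-1 on ABA, against 92.4, 67.2 and 168 RPM in dcl4-2 on ABA. In Col-0 the sums were 82.6, 76.5 and 121 RPM on ABA, against 37.8, 21.9 and 29.3 RPM on MS. All Col-0 libraries on ABA lay above those on MS, at a ratio of 3.15. The same ratio was 3.98 in dcl4-2, and 1.77 in dcl4-2 dcl2-1, where the media overlapped. On MS dcl4-2 dcl2-1 summed to 14.6, 23.2 and 0 RPM, against 28.9, 16.5 and 37.0 RPM in dcl4-2. These overlapped, at a ratio of 0.459. The double mutant and Col-0 on MS overlapped too, at 0.425.

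The other 62 loci summed to 226, 173 and 205 RPM in dcl4-2 dcl2-1 on ABA, against 535, 426 and 878 RPM in dcl4-2 on ABA, a ratio of 0.328. Their Col-0 sums were 464, 397 and 539 RPM on ABA, against 245, 207 and 236 RPM on MS, a ratio of 2.03 without overlap. The 888 interval rows under the threshold summed to 284, 265 and 298.5 RPM in dcl4-2 dcl2-1 on ABA, against 719.7, 592 and 1024 RPM in dcl4-2 on ABA, a ratio of 0.363. Of these 4 sets the AT3G43862 family had the lowest ratio of dcl4-2 dcl2-1 to dcl4-2 on ABA. The levels chose the 102 loci, so no test of that difference is given.

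**Figure D3:**
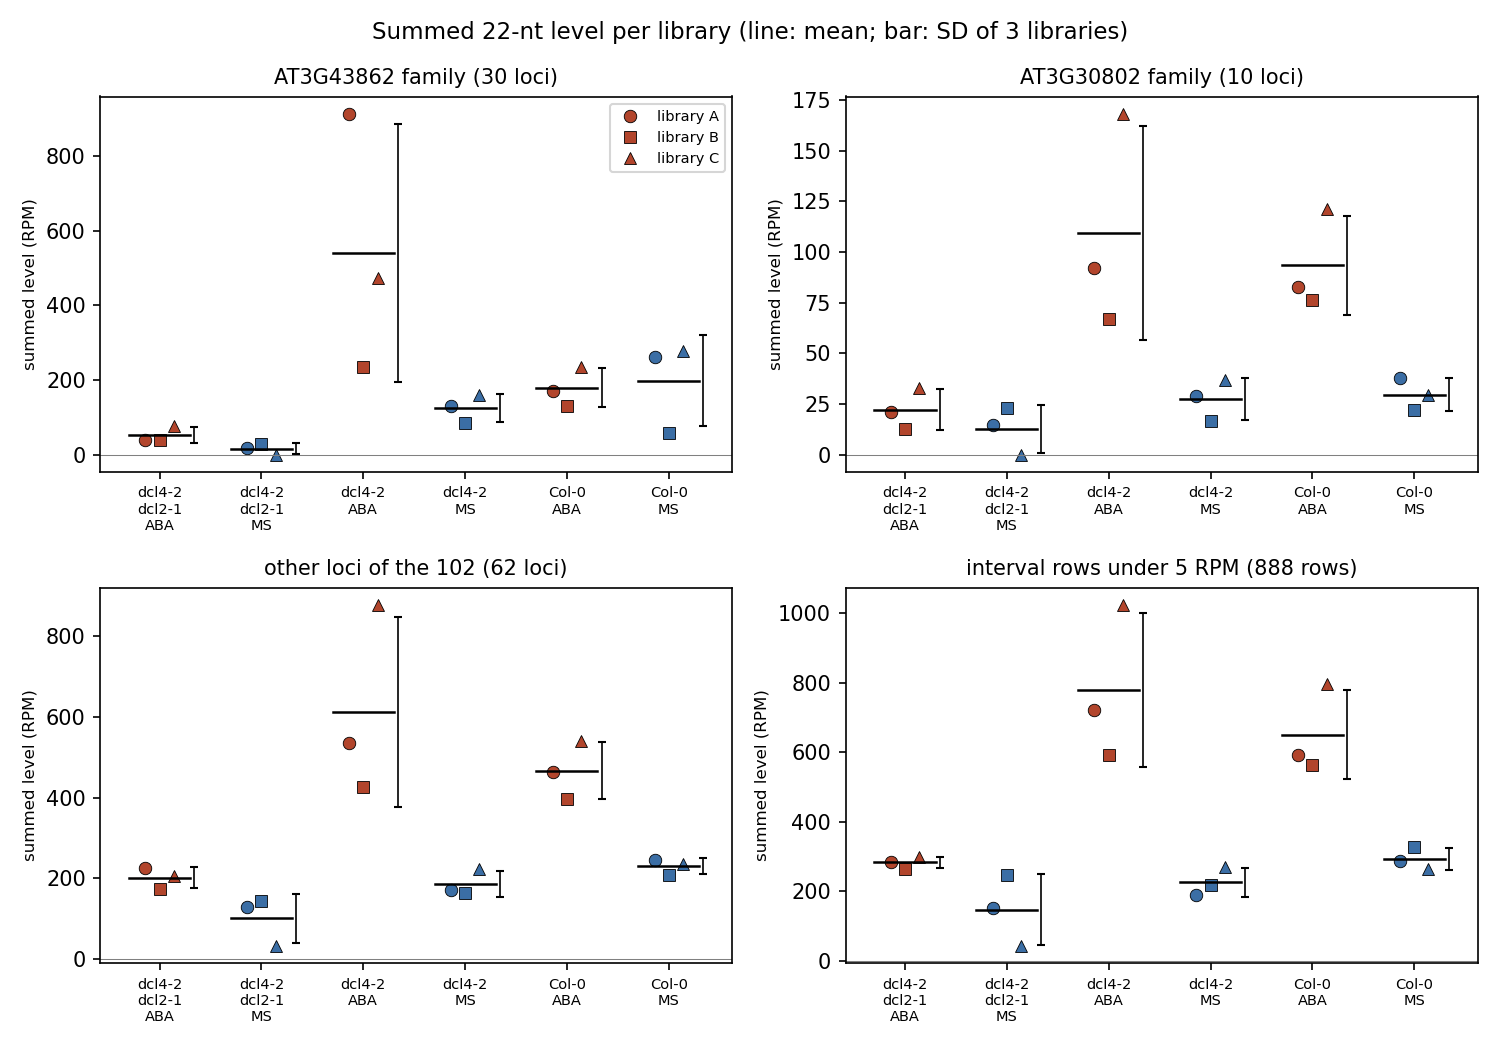
Summed level (RPM) of the AT3G43862 family, the AT3G30802 family, the other 62 loci and the 888 interval rows under 5 RPM, in each of the 18 libraries, with the mean (line) and SD (bar) of each group. In all 4 panels the 3 dcl4-2 ABA libraries lie above the 3 dcl4-2 dcl2-1 ABA libraries. Library A of dcl4-2 on ABA stands apart in the AT3G43862 family, at 914 RPM.

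Single libraries weigh on the AT3G43862 family. In dcl4-2 ABA library A the family took 59.3% of the summed level of the 102 loci, against 32.2% in library B and 31.2% in library C. In Col-0 on MS, library B held 57.6 RPM beside 262 and 277 RPM, and its share was 20.1% beside 48.03% and 51.1%. In dcl4-2 dcl2-1 the share was 13.7, 18 and 24.6% on ABA and 11.9, 15.5 and 0% on MS, where the 0 is the shallowest library.

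The leading loci carried this pattern. AT3G43862 (chr3:15714896-15716641, minus strand) had 0, 1.81 and 5.53 RPM in dcl4-2 dcl2-1 on ABA, against 246, 20.9 and 38.7 RPM in dcl4-2 on ABA. On MS it had 0, 1.01 and 0 RPM in dcl4-2 dcl2-1, 18.1, 6.01 and 42.8 RPM in dcl4-2 and 85.9, 5.76 and 84.4 RPM in Col-0, while Col-0 on ABA gave 10.5, 5.46 and 11.8 RPM. The double mutant was below dcl4-2 on both media without overlap, and within dcl4-2 on ABA library A stood far above B and C. On the log2(RPM + 1) scale, which understates changes at low levels, the difference of dcl4-2 dcl2-1 from dcl4-2 was -4.50 ± 0.87 (SE) on ABA and -3.84 ± 0.87 on MS, and that from Col-0 on MS was -4.87 ± 0.87. These and the other log2 differences of single loci below come from a limma model over the 18 libraries and are descriptions, since the same values chose the loci.

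AT3G33067 (chr3:13649581-13651310, plus strand), the locus with the exact MIR854 sequence printed above, had 0.782, 2.72 and 0 RPM in dcl4-2 dcl2-1 on ABA, against 133, 13.4 and 27.1 RPM in dcl4-2 on ABA. On MS it had 2.74, 0 and 0 RPM in dcl4-2 dcl2-1, against 19.3, 16.5 and 17.5 RPM in dcl4-2. Again the double mutant lay below dcl4-2 in every library, by -4.33 ± 0.82 on ABA and -3.59 ± 0.82 on MS (log2, SE). The 0 reads of double mutant library C allow up to 16.6 RPM on ABA and 31.5 RPM on MS. The latter exceeds all 3 dcl4-2 values on MS. Col-0 had 7.31, 6.01 and 9.14 RPM on ABA and 11.2, 4.60 and 15.5 RPM on MS, which overlap.

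AT3G30695 (chr3:12247335-12253398, minus strand) had 3.91, 1.81 and 5.53 RPM in dcl4-2 dcl2-1 on ABA, against 88.8, 19.7 and 34.8 RPM in dcl4-2 on ABA. AT3G32010 (chr3:12988334-12990208, plus strand) had 1.56, 0.907 and 0 RPM in dcl4-2 dcl2-1 on ABA, against 35.7, 7.38 and 9.67 RPM in dcl4-2 on ABA. In Col-0 on MS, AT3G30695 stood at 36.8, 2.30 and 31.0 RPM and AT3G32010 at 33.7, 6.91 and 37.9 RPM. In that group library B was the low one at AT3G43862, AT3G33067, AT3G30695 and AT3G32010 alike, and the same library held the lowest family sum. The difference of dcl4-2 dcl2-1 from Col-0 on MS was -3.34 ± 0.83 for AT3G30695 and -3.62 ± 0.81 for AT3G32010 (log2, SE).

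With those 4 loci set aside, the other 26 of the family summed to 32.8, 33.5 and 66.3 RPM in dcl4-2 dcl2-1 on ABA, against 410.4, 173 and 364 RPM in dcl4-2 on ABA, a ratio of 0.140 without overlap. In Col-0 they summed to 137, 105 and 189 RPM on ABA, against 94.1, 38.0 and 109 RPM on MS, a ratio of 1.79 with overlap. Leaving out the 4 loci therefore turned the Col-0 ratio of ABA to MS, which was 0.903 with them.

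Further family members ranked among the 15 most abundant of the 102. AT3G30668 averaged 3.23 ± 2.01 RPM in dcl4-2 dcl2-1 on ABA, against 23.7 ± 7.84 RPM in dcl4-2 on ABA (SD, n = 3 each). AT3G43304 averaged 1.13 ± 0.983 RPM against 25.6 ± 10.7 RPM in those groups, and AT3G42253 4.85 ± 5.46 RPM against 23.0 ± 18.04 RPM. The last has 11.1 RPM in double mutant ABA library C, which is 2 reads there. AT3G33081 had 0 reads in all 3 double mutant libraries on MS, against 2.41, 15.03 and 9.73 RPM in dcl4-2 on MS. AT3G33124 had 0 reads in all 3 double mutant libraries on ABA, against 7.34, 6.39 and 5.80 RPM in dcl4-2 on ABA and 6.85, 2.73 and 7.18 RPM in Col-0 on ABA.

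**Figure D4:**
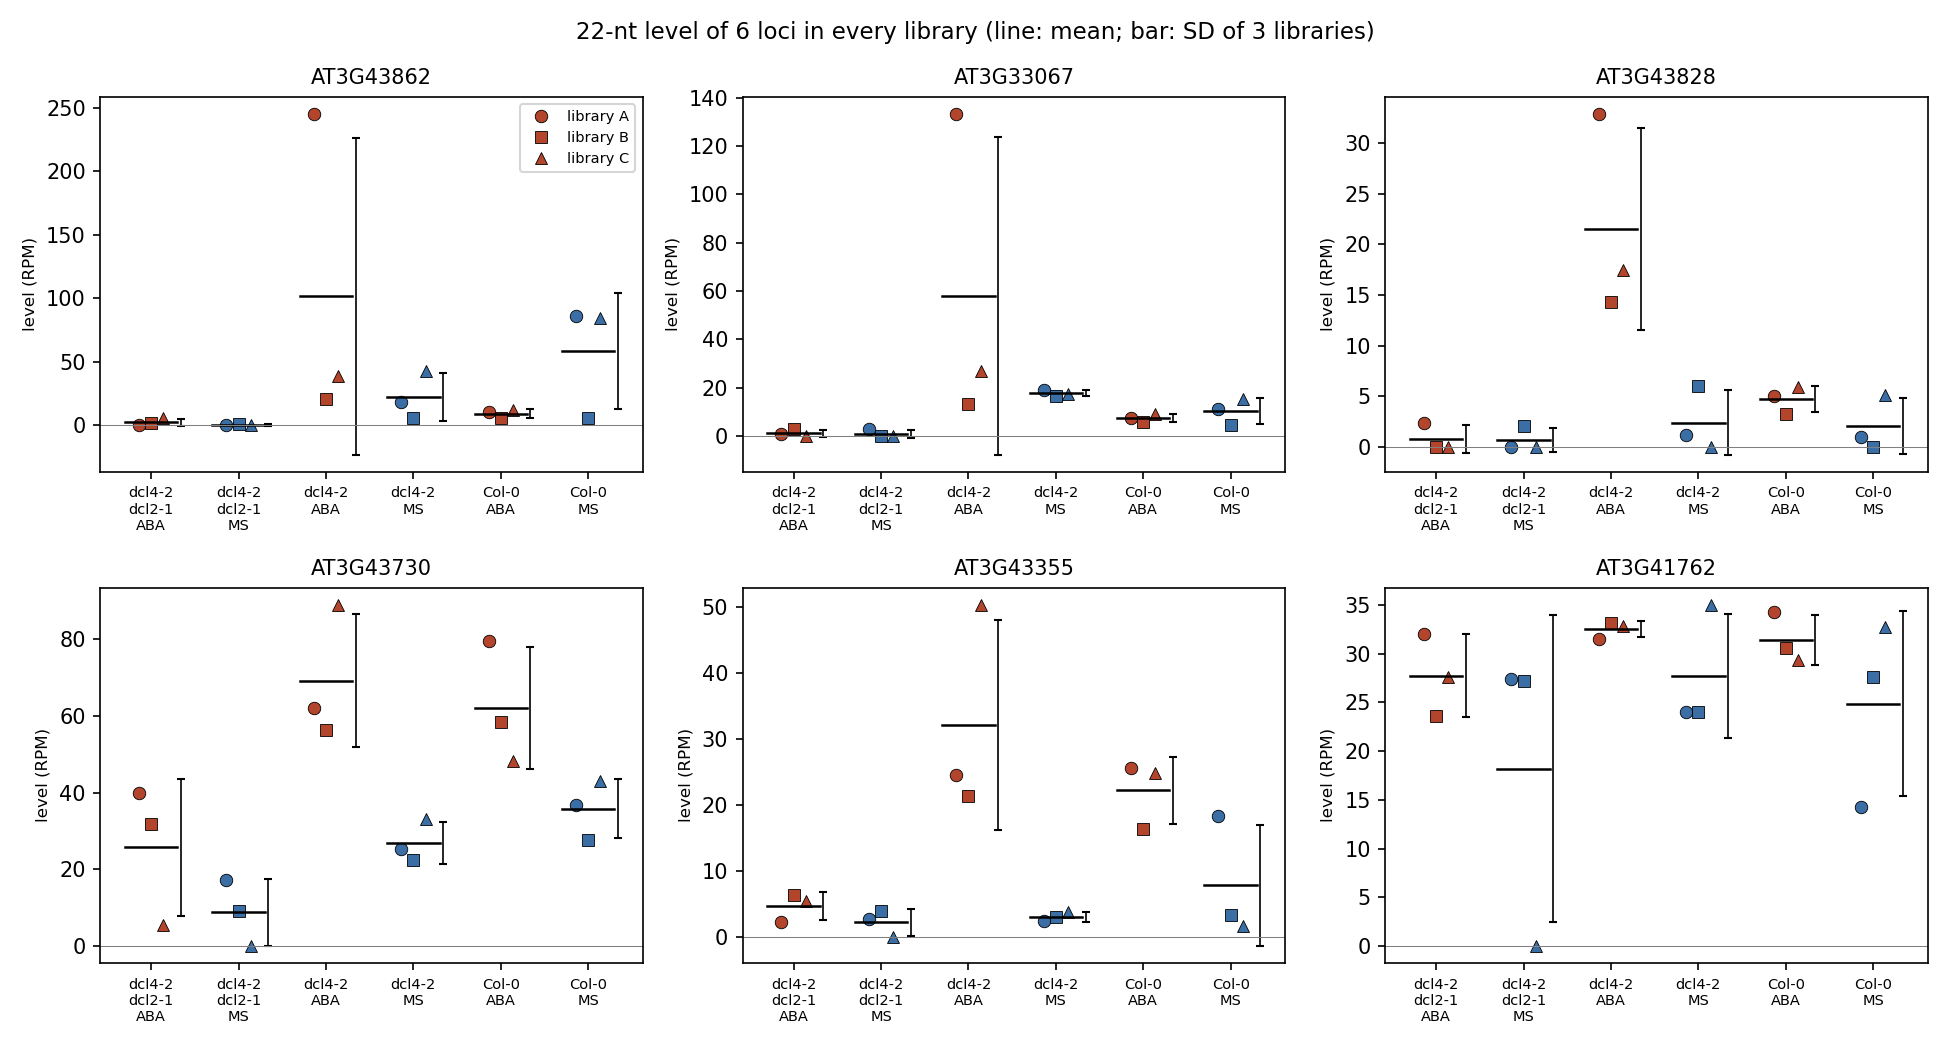
Level (RPM) of 6 loci in each of the 18 libraries, with the mean (line) and SD (bar) of each group. AT3G43862, AT3G33067 and AT3G43828 are near 0 in both double mutant groups, AT3G43730 and AT3G43355 are higher in ABA than in MS libraries of dcl4-2, and AT3G41762 lies between 23.6 and 35.0 RPM in 16 of the 18 libraries.

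AT3G43828, the inverted repeat locus, had 2.35, 0 and 0 RPM in dcl4-2 dcl2-1 on ABA, against 32.9, 14.3 and 17.4 RPM in dcl4-2 on ABA. In dcl4-2 on MS it had 1.203, 6.01 and 0 RPM, and in Col-0 it had 5.02, 3.28 and 5.88 RPM on ABA and 1.02, 0 and 5.17 RPM on MS. All dcl4-2 ABA libraries stood above every other library. The difference of dcl4-2 dcl2-1 from dcl4-2 on ABA was -3.83 ± 0.76 (log2, SE). Of its words, 17.99% occur more than once in the nuclear genome, fewer than in most of the 102 loci. Words that its own arms share count among them. The other inverted repeat locus, AT3G31945, averaged 0 RPM in dcl4-2 dcl2-1 on ABA, against 7.03 RPM in dcl4-2 on ABA.

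AT3G43730 (chr3:15633913-15636942, plus strand) had the highest mean RPM over the 6 groups of all 102 loci, not corrected for length, and matched an En/Spm-like transposon protein. It had 39.9, 31.7 and 5.53 RPM in dcl4-2 dcl2-1 on ABA, against 62.1, 56.5 and 89.0 RPM in dcl4-2 on ABA. Col-0 had 79.4, 58.5 and 48.3 RPM on ABA, against 36.8, 27.6 and 43.1 RPM on MS. The double mutant was lower than dcl4-2 in every library, at a ratio of means of 0.372, beside a median of 0.152 over the 102 loci. The 5.53 RPM of library C is 1 read.

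Loci without a relative among the 102 included AT3G43355 (chr3:15302249-15304269, minus strand). It had 2.35, 6.35 and 5.53 RPM in dcl4-2 dcl2-1 on ABA, against 24.5, 21.5 and 50.3 RPM in dcl4-2 on ABA. In dcl4-2 the MS libraries had 2.41, 3.01 and 3.89 RPM, and in Col-0 the levels were 25.6, 16.4 and 24.8 RPM on ABA, against 18.4, 3.45 and 1.72 RPM on MS. ABA libraries of dcl4-2 thus lay above its MS libraries without overlap, while in Col-0 library A on MS came within the ABA range. Its neighbour AT3G43356 had 3.13, 0 and 0 RPM in dcl4-2 dcl2-1 on ABA, against 10.5, 10.4 and 20.9 RPM in Col-0 on ABA, a difference of -3.15 ± 0.78 (log2, SE).

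AT3G43833 (chr3:15687554-15688773, plus strand) is a protein-coding gene with no 22-base word in common with the rest of the nuclear genome. It had 4.69, 1.81 and 0 RPM in dcl4-2 dcl2-1 on ABA, 12.3, 9.48 and 29.0 RPM in dcl4-2 on ABA and 15.98, 14.8 and 28.7 RPM in Col-0 on ABA. On MS the values were 10.04, 3.03 and 0 RPM in dcl4-2 dcl2-1, 8.42, 4.51 and 9.73 RPM in dcl4-2 and 8.18, 1.15 and 1.72 RPM in Col-0. On ABA the double mutant libraries were below both other genotypes, and on MS all 3 genotypes overlapped.

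The largest log2 differences between ABA and MS in dcl4-2 were at AT3G32894, AT3G32990 and AT3G33133. AT3G32894 had 9.86, 8.38 and 23.2 RPM in dcl4-2 on ABA and no read in dcl4-2 on MS, a difference of 3.76 ± 0.71 (log2, SE). AT3G32990 had 16.02, 6.79 and 15.5 RPM on ABA, against 1.203, 0 and 0 RPM on MS in dcl4-2, a difference of 3.32 ± 0.72. AT3G33133 had 10.9, 8.98 and 21.3 RPM on ABA, against 0, 0 and 1.95 RPM on MS in dcl4-2, a difference of 3.27 ± 0.74. In each case every dcl4-2 library on ABA lay above every one on MS.

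Other loci among the 15 most abundant were AT3G32893, AT3G33178, AT3G30802 and AT3G29773. In dcl4-2 dcl2-1 on ABA they averaged 7.24, 7.84, 4.01 and 7.76 RPM, against 19.9, 17.9, 18.4 and 15.4 RPM in dcl4-2 on ABA. In Col-0 on ABA they averaged 22.3, 16.6, 16.3 and 14.1 RPM, against 7.01, 8.92, 5.58 and 3.62 RPM in Col-0 on MS. All 4 were higher on ABA than on MS in Col-0 by their means.

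AT3G41762 (chr3:14195447-14196865, minus strand) differed little between the groups. It had 32.1, 23.6 and 27.6 RPM in dcl4-2 dcl2-1 on ABA, 31.6, 33.1 and 32.9 RPM in dcl4-2 on ABA and 34.2, 30.6 and 29.4 RPM in Col-0 on ABA. On MS it had 27.4, 27.2 and 0 RPM in dcl4-2 dcl2-1, 24.1, 24.1 and 35.0 RPM in dcl4-2 and 14.3, 27.6 and 32.7 RPM in Col-0. Aside from the 0 of the shallowest library and the 14.3 of Col-0 MS library A, its libraries lay close together. This protein-coding locus ends 811 bases before the ribosomal RNA gene AT3G41768, which starts at position 14197677, and is 99.1% identical over its 1419 bases to AT2G01008 on chromosome 2. MEE38 (AT3G43160), the one protein-coding locus of the 102 with a gene symbol and named for an embryo arrest phenotype, aligns to AT3G41762 with 87.7% identity. It averaged 3.68 ± 3.29 RPM in dcl4-2 dcl2-1 on ABA, against 6.81 ± 4.53 RPM in dcl4-2 on ABA (SD, n = 3 each), which overlapped.

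Levels of different loci were compared per kb of locus. As the mean of the 6 groups, AT3G41762 had 19.1 RPM per kb, AT3G43862 18.6, AT3G43730 12.6, AT3G33067 9.23, AT3G43828 8.55 and AT3G43833 7.45. AT3G43304 and AT3G30668, 8751 and 8698 bases long, had 0.982 and 1.00 RPM per kb.

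Over the 102 loci, the group mean on ABA was lower in dcl4-2 dcl2-1 than in dcl4-2 for 96 and higher for 6. The ratio of the means was under 0.1 for 33 loci, from 0.1 to under 0.5 for 54, from 0.5 to under 1 for 9 and at least 1 for 6. Its median was 0.0804 in the AT3G43862 family, 0.146 in the AT3G30802 family and 0.226 for the other loci. Of the 6 loci at or above 1, AT3G33528 had 3.13, 0.907 and 11.1 RPM in dcl4-2 dcl2-1 on ABA, against 1.58, 3.49 and 0 RPM in dcl4-2 on ABA, and the groups overlapped.

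**Figure D5:**
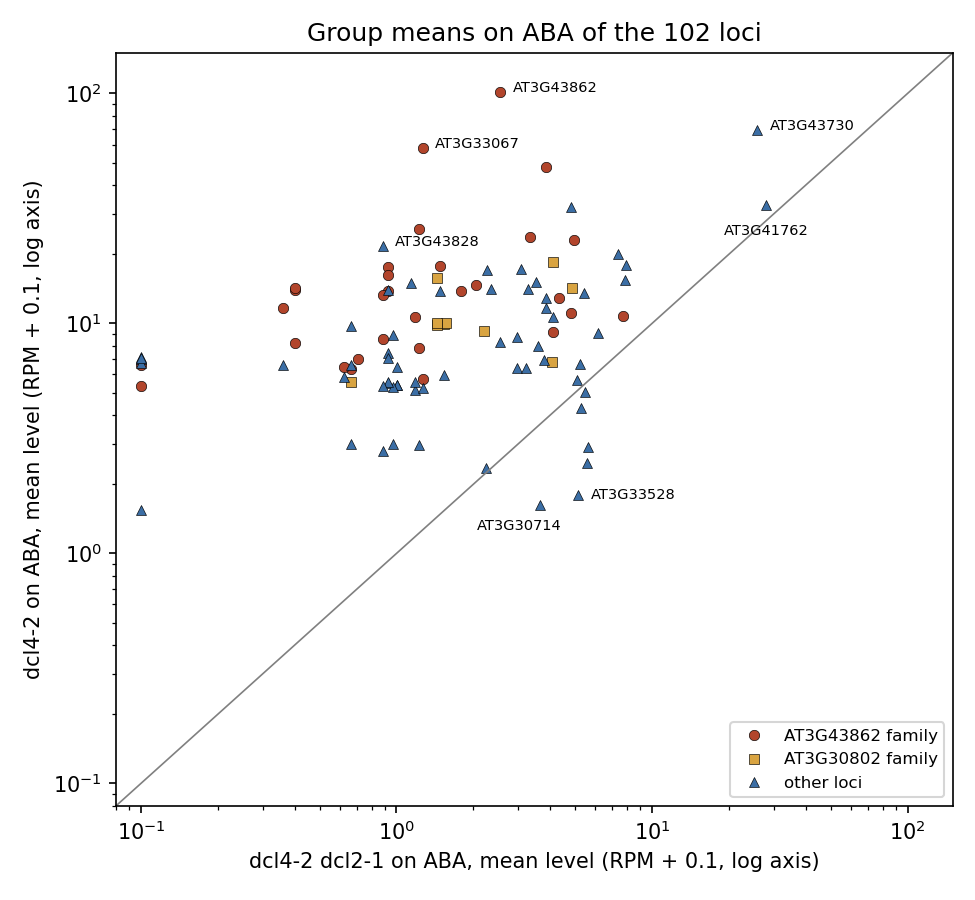
Mean level of each of the 102 loci in dcl4-2 dcl2-1 on ABA (x axis) and in dcl4-2 on ABA (y axis), both as RPM + 0.1 on log axes, with the grey line at equality. 96 loci lie above the line, and the AT3G43862 family (circles) lies farthest from it by median ratio, 0.0804.

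In the model over all loci, all 102 passed the filter of 1 RPM in 3 libraries. With limma at an adjusted p under 0.05, 43 were lower and 0 higher in dcl4-2 dcl2-1 than in dcl4-2 on ABA, where 6.18% of the 5695 loci tested were lower and 0.105% higher. By family, 23 of 30, 4 of 10 and 16 of 62 were lower. For ABA against MS in dcl4-2, 30 were higher and 0 lower, where 5.27% of the loci tested were higher and 0.246% lower. The families gave 10 of 30, 4 of 10 and 16 of 62. Nothing is read from these counts, since the group means behind the same contrasts chose the loci and 90 of the 102 reached 5 RPM in dcl4-2 on ABA. With microRNA sums made equal both counts became 0, and without library C of dcl4-2 on ABA they became 12 and 2.

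The other comparisons gave few calls. In dcl4-2 dcl2-1 against dcl4-2 on MS 3 loci were lower, AT3G43862, AT3G33067 and AT3G33081, where 0.579% of the loci tested were lower and 0.0702% higher. Against Col-0 on MS, dcl4-2 dcl2-1 was lower at 3 loci, AT3G43862, AT3G32010 and AT3G30695, where 1.23% of the loci tested were lower and 0.0176% higher. Against Col-0 on ABA it was lower at AT3G43356 and AT3G33124, where 0.614% were lower and 0.0351% higher. For ABA against MS in Col-0 the limma model called 0 of the 102, where 0.316% of the loci tested were higher and 0.386% lower. Without adjustment, 36 of the 102 and 908 of all 5697 loci tested had a limma p under 0.05. In dcl4-2 dcl2-1 the limma model called 0 for ABA against MS, where 0.176% of the loci tested were higher and 0.0527% lower. Unadjusted, 13 of the 102 and 454 of all 5697 were under 0.05. For dcl4-2 against Col-0 on ABA the limma model called 0, where 0.14% were higher and 0.0878% lower. Unadjusted, 7 of the 102 and 335 of all 5695 were under 0.05. On MS the limma model called 0 for dcl4-2 against Col-0, where 0.0878% were higher and 0.369% lower. Unadjusted, 6 of the 102 and 524 of all 5697 were under 0.05.

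The authors' deposited table tests 4 of these comparisons. The authors' deposited table called 35 of the 102 lower and 0 higher in dcl4-2 dcl2-1 than in dcl4-2 on ABA, and 8.14% of its 2026 loci lower and 0.74% higher. For ABA against MS in dcl4-2 the authors' deposited table called 16 of the 102 higher and 0 lower, and 6.23% of its 1621 loci higher and 1.91% lower. In Col-0 the authors' deposited table called 0 of the 102, and 1.58% of all its loci higher and 0.987% lower. In dcl4-2 dcl2-1 the authors' deposited table called 0 of the 102, and 0.0186% of its 21457 loci higher and 0.00466% lower.

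Median log2 differences of the 102 are given beside those of all loci and of the 460 interval rows tested, members included, since the choice by level favours large differences in the 102. For dcl4-2 dcl2-1 against dcl4-2 on ABA the median was -2.08 for the 102, -0.99 for the 460 interval rows and -0.51 over all loci tested. For ABA against MS it was 0.48 in dcl4-2 dcl2-1, 1.73 in dcl4-2 and 1.03 in Col-0, beside 0.20, 1.08 and 0.73 for the interval rows and 0.04, 0.51 and 0.26 over all loci. For dcl4-2 against Col-0 it was 0.53 on ABA and -0.19 on MS, beside 0.20 and -0.05 for the interval rows and 0.08 and -0.13 over all loci.

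Libraries of the compared groups were also set against each other locus by locus. In dcl4-2 dcl2-1 against dcl4-2 on ABA 72 of the 102 were lower and 0 higher without overlap, where 25.7% of all loci tested were lower and 1.35% higher. On MS 24 were lower and 0 higher, where 3.83% of all loci were lower and 0.527% higher. For ABA against MS in dcl4-2 dcl2-1 6 were higher and 0 lower, where 2.49% of all loci were higher and 0.913% lower. Each of the 102 had 0 reads in some double mutant library on MS, mostly the shallowest. None could therefore be higher than dcl4-2 or Col-0 on MS, or lower on ABA than on MS in the double mutant, without overlap. On ABA, 68 of the 102 had 0 reads in double mutant library C, where 0 reads allow up to 16.6 RPM. A 0 there can count as lower even beside levels under 16.6 RPM in dcl4-2 or Col-0.

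In dcl4-2 68 loci were higher on ABA than on MS without overlap and 0 lower, where 25.5% of all loci were higher and 1.91% lower. In Col-0 44 were higher on ABA and 2 lower, where 16.3% of all loci were higher and 2.95% lower. Of the 102 loci, 90 had reached 5 RPM in dcl4-2 on ABA and 58 in Col-0 on ABA, so nothing is read from these counts.

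In dcl4-2 dcl2-1 against Col-0, 57 were lower and 0 higher on ABA, where 21.7% of all loci were lower and 0.843% higher. On MS 33 were lower and 0 higher, where 8.65% were lower and 0.509% higher. That 0 was fixed in advance, because each of the chosen loci had 0 reads in some double mutant library on MS. In dcl4-2 against Col-0, 22 were higher and 1 lower on ABA, where 9.1% were higher and 6.58% lower, and on MS 3 were higher and 5 lower, where 1.39% were higher and 3.6% lower. The 9 comparisons share groups of libraries.

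The interaction term of the limma model, the response to ABA in dcl4-2 minus that in Col-0, called 1 of the 102 loci higher and 0 lower, where 0.263% of the loci tested were higher and 0.0% lower. This was AT3G30620 (chr3:12189146-12191103, minus strand), a member of the AT3G43862 family. It had 7.10, 2.89 and 5.80 RPM in dcl4-2 on ABA and no read in dcl4-2 on MS, while Col-0 had 0, 2.19 and 1.31 RPM on ABA and 7.16, 1.15 and 8.61 RPM on MS. It reached 5 RPM by its means in dcl4-2 on ABA (5.27) and Col-0 on MS (5.64) alone, the groups whose high levels make this term positive, so the call is a description of how the locus was chosen and no test. The call was lost with microRNA sums made equal, and also when any one of 5 libraries was left out, A or C of dcl4-2 on ABA, A of Col-0 on ABA, and A or C of Col-0 on MS. For the difference between dcl4-2 dcl2-1 and dcl4-2 in that response the limma model called 0 loci, where 0.193% of the loci tested were lower and 0.0176% higher. Unadjusted, 29 of the 102 and 624 of all 5695 were under 0.05.

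The loci were spread along the interval. In bins of 0.5 Mb they made up between 3.48% of the rows, from 11.5 to 12 Mb, and 19.4%, from 13.5 to 14 Mb, where 14 of 72 rows were among them and 10 of those 14 belonged to the AT3G43862 family. Across the 102 loci, Spearman's rho between the share of 22-base words found more than once in the genome and the highest group mean was 0.33, and with the level per kb 0.13. With the log2 difference of dcl4-2 dcl2-1 from dcl4-2 on ABA it was -0.25. These describe loci that share libraries and, within families, sequence.

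A fixed set of 6 protein-coding genes of the interval with known roles stayed under 1 RPM in every group. QQS, an orphan gene of starch metabolism, DAYSLEEPER, a domesticated transposase, and CLSY1, a chromatin remodeller of RNA-directed DNA methylation, were listed above 0 in dcl4-2 on ABA alone, at 0.475, 0.731 and 0.105 RPM. Libraries A and B of that group are the deepest, with 1 read worth 0.0789 and 0.0998 RPM. In every library of the other groups 1 read is worth at least 0.457 RPM. The part of depth in these values was not tested. ERD5, a proline dehydrogenase, reached at most 0.604 RPM, CYP85A2, an enzyme of brassinosteroid synthesis, 0.341 RPM and the calmodulin CAM7 0.911 RPM. Of 35 genes of the silencing machinery, 34 stayed under 5 RPM in every group and 6 entered the model. AGO2, an Argonaute protein, was the exception at 17.6 RPM in Col-0 on MS, against 0 in dcl4-2 dcl2-1 on MS. By the limma model AGO2 and AGO1 were lower in dcl4-2 dcl2-1 than in dcl4-2 on ABA, AGO2 and the DNA methyltransferase MET1 were lower in dcl4-2 dcl2-1 than in Col-0 on MS, and both were lower on ABA than on MS in Col-0. MET1 was also lower in dcl4-2 than in Col-0 on MS, and in the remaining 5 comparisons of groups the limma model called 0 of the 6. The interaction of ABA with dcl4-2 against Col-0 called AGO2 higher.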

How the data were processed

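Small RNAs of 22 nt were measured in 18 libraries, 3 for each of 6 groups. Per the file headers the deposited group columns are TPM. From the values they are RPM without a length term, and each is the authors' mean of 3 libraries, in which 1 read has the same worth at every locus. The submitters' processing notes list Bowtie 1.2.2, SAMtools 1.9, DESeq2 and the TAIR10 build, with no role for any of them. The deposited table also holds the authors' log2 fold changes and p-values for 4 comparisons. The sources used here leave out trimming, allowed mismatches and the treatment of reads with several matches.

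Each deposited mean was solved for 3 whole numbers of reads. The scaling totals behind the means lay up to 0.496 from a whole number. They are therefore not shown to be the read counts of the libraries. Every row of the interval had 1 solution. NIA1 and NIA2 were not solved in dcl4-2 on ABA. Since the columns are means, the recovered values carry no replicate number, and letters A to C follow the scaling total. Chi-square per degree of freedom between libraries of a group was at least 1.54, so none was a copy of another.

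A locus entered the test if 3 or more libraries reached 1 RPM. The test was limma 3.58.1 (R 4.3.3, trended prior) with 1 mean per group over log2(RPM + 1) of all 18 libraries, which share the spread, and Benjamini-Hochberg adjustment over all loci tested at 0.05. The test was checked on simulated data. Summed levels were compared by exact two-sided permutation of libraries. Floors and recovered reads cover counting error only. Sequences and annotation came from the RefSeq assembly TAIR10.1, searched with BLAST+ 2.17.0, and tables and figures were made in Python 3.11.15 with numpy 2.4.6, pandas 2.3.3, Biopython 1.88, networkx 3.6.1 and matplotlib 3.10.9.

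The loci, gene lists and comparisons were chosen with earlier results of these data known. Loci named in the text are the 15 with the highest mean over groups, the 3 largest log2 differences in each direction per comparison among loci that passed without overlap, the 3 just inside and outside the threshold, protein-coding loci with a symbol, and a fixed set of known genes of the interval. Loci named beyond these, among them AT3G31945, AT3G43520 and AT3G30620, were chosen after their values were seen. Alternatives tried were the pseudocount, the filter, the scaling, the libraries used and the regions compared.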

Additional observations from a re-analysis of the deposited data

Results flagged for a closer look

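AT3G30620 was the 1 locus of the 102 whose ABA response the limma model called different between dcl4-2 and Col-0. The ABA minus MS difference was 2.58 in dcl4-2 and -1.51 in Col-0 on the log2(RPM + 1) scale, a difference of 4.09 ± 0.93 (SE). No p is given, because the locus entered the 102 only by its means in dcl4-2 on ABA (5.27 RPM) and Col-0 on MS (5.64 RPM), the groups that make this difference positive. Its level was above MS in 3 of 3 dcl4-2 libraries on ABA. The highest library had 8.61 RPM, which is 5 reads in Col-0 MS library C. The call was absent with microRNA sums made equal, with sums other than NIA1 and NIA2 made equal, and without the filter on low values, and it was lost when any one of 5 libraries was left out: A or C of Col-0 on MS, A of Col-0 on ABA, A or C of dcl4-2 on ABA. Reads shared with other members of the AT3G43862 family were not tested as a part of it.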

How the results depend on the processing

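The comparison regions without NIA2 and the removal of 3 shallow libraries together (C of dcl4-2 dcl2-1 on ABA, of dcl4-2 dcl2-1 on MS and of dcl4-2 on ABA) were chosen after seeing the data. The cause of each change was not tested. Of the 81 alternative values of the summed interval 80 kept their direction. The exception was ABA against MS in Col-0, at log2 -0.17 with microRNA sums equal. For the log2 ratio of the interval to other pericentromeres, 65 of 78 kept their direction. ABA against MS in Col-0 became -0.0021 without NIA2 and -0.11 against chromosome 2 alone. With chromosome 2 alone dcl4-2 against Col-0 on ABA became 0.22, dcl4-2 dcl2-1 against dcl4-2 on MS -0.70 and on ABA -0.0931, and dcl4-2 dcl2-1 against Col-0 on ABA 0.13. Without NIA2 dcl4-2 dcl2-1 against dcl4-2 on MS became -0.18 and dcl4-2 dcl2-1 against Col-0 on ABA 0.0321. With 1 library left out the ratio ran from -0.15 to 0.64 for ABA against MS in dcl4-2 dcl2-1 (-0.15 without MS library C), from -0.0773 to 0.0820 for dcl4-2 against Col-0 on ABA, from -0.0499 to 0.14 for dcl4-2 dcl2-1 against dcl4-2 on ABA and from -0.66 to 0.13 for dcl4-2 dcl2-1 against Col-0 on MS (0.13 without dcl4-2 dcl2-1 MS library C).

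The counts of called loci depended on scaling. Equal microRNA sums moved the median log2 difference over all loci to 0.06, against 0.51 as deposited, for ABA against MS in dcl4-2, and to -0.11, against -0.51, for dcl4-2 dcl2-1 against dcl4-2 on ABA. Of the 102 loci, ABA against MS in dcl4-2 (30 called) gave 0 with equal microRNA sums, 1 with equal sums without NIA1 and NIA2, 6 with no filter, 8 without the 3 shallow libraries, and 2 to 24 with 1 library left out (2 without dcl4-2 ABA library C, 7 without A, 11 and 15 without MS libraries B and C). dcl4-2 dcl2-1 against dcl4-2 on ABA (43 called) gave 0, 2, 13 and 12 in the same order, and 12 to 37 with 1 library left out (12 without dcl4-2 ABA library C, 14 without A, 22 without dcl4-2 dcl2-1 ABA library C). On MS (3 called) it gave 0 with a pseudocount of 5 or no filter, 5 with a filter of 5 RPM, 6 with equal microRNA sums and 1 to 3 with 1 library left out. dcl4-2 dcl2-1 against Col-0 on MS (3 called) gave 0 with no filter, 8 with a filter of 5 RPM and 1 to 5 with 1 library left out. On ABA (2 called) it gave 5 with a pseudocount of 5, 18 with a filter of 5 RPM or the compared groups alone, 0 with no filter, either scaling or the 3 libraries out, and 0 to 3 with 1 library left out. Where 0 were called, Col-0 ABA against MS gave 1 with a filter of 5 RPM or the groups alone, dcl4-2 against Col-0 gave 1 on MS with a filter of 5 RPM or equal microRNA sums, and 2 and 6 on ABA with a pseudocount of 5 and the groups alone. With 1 library left out, ABA against MS in dcl4-2 dcl2-1, dcl4-2 against Col-0 on MS and both interactions gave 0 to 1. The interaction of dcl4-2 and Col-0 (1 called) gave 0 with no filter or either scaling, and that of dcl4-2 dcl2-1 and dcl4-2 gave 1 with a filter of 5 RPM. For single named loci 91 alternatives kept the call, 35 lost it and 0 changed direction.

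No paired analysis was possible because the deposited columns are group means and the recovered libraries carry no replicate numbers. edgeR and DESeq2 were not run, since the deposited values are RPM, although whole reads per library were recovered from them. The limma model gave deep and shallow libraries the same weight. No ribosomal RNA row lies in the interval sum, so keeping such rows changes nothing. In dcl4-2 dcl2-1 MS library C, where 1 read is 10.5 RPM, 0 reads allow a level of up to 31.5 RPM. In dcl4-2 dcl2-1 ABA library C, where 1 read is 5.53 RPM, 0 reads allow up to 16.6 RPM.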
